A study of Mus musculus with 4 samples.

Results

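The comparison described here is that of Smad4 knockout (KO) with wild type (WT) in T helper 17 (Th17) cultures kept at 39.5 °C, a fever-range temperature. It was chosen by label: 2 of the 4 libraries analysed here were cultured at 39.5 °C, 1 labelled wild type and 1 labelled Smad4 KO, and the other 2 libraries hold the same genotypes at 37 °C. C57BL/6 mice, either wild type or Smad4-deficient, gave naive CD4+ T cells, which were sorted out of spleen plus lymph node tissue. All groups were activated and cultured in IL-6 plus TGF-β1 (transforming growth factor β1). RNA was taken after 3 days in culture. The labels give no deleted exon, no Cre driver and no number of animals, so nothing is known here about which cells lost the gene or how many mice stand behind a library. Values are in RPKM, which divides reads by exon length and by a library size, here not the plain read total. Pairs of values are given in the order WT, then the library labelled Smad4 KO, both at 39.5 °C unless 37 °C is named.

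Smad4 encodes the common SMAD, the partner that joins receptor-activated SMAD2 and SMAD3 on DNA once TGF-β has bound its receptors. In CD4+ T cells TGF-β together with IL-6 drives the Th17 program, marked by the cytokines IL-17A and IL-17F, and TGF-β alone favours Foxp3 and the regulatory T (Treg) cell program. Th17 cells also depend on glycolysis and on hypoxia-inducible factor 1.

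Smad4 was examined first, since its level bears on the labels. It stood at 14.2 and 21.3 RPKM at 39.5 °C (1016 and 1458 reads), a ratio of 1.5 (1.39 to 1.63), and at 14 and 20.7 RPKM at 37 °C. The targeted gene was thus higher, not lower, in both libraries with the KO label. An RPKM over all exons cannot show a deletion of part of the gene, so every direction given here is that of the label. Whole reads recovered per library ranged from 18048961 to 18475245. The library size behind the RPKM values, divided by these reads, was 1.06 for WT and 0.997 for the KO label at 39.5 °C. At 37 °C it was 1.01 and 0.955, the last a size below the reads themselves. The deposited values thus hold a scaling beyond read depth, which raises ratios of KO label over WT somewhat. All 12 T cell marker genes listed were above 1 RPKM in every library, with a summed level of 3571 and 4015 RPKM at 39.5 °C. Of 10 Th17 markers, 9 were above 1 RPKM in all 4 libraries and Il22 was below it in all 4. Most markers of other cells were low: CD8 and natural killer cell genes summed to 12.9 and 11.1 RPKM (5 of 10 in the tables used), B cell genes to 4.63 and 3.85 RPKM (3 of 9), myeloid genes to 73.3 and 77.6 RPKM (7 of 12, with Cst3 alone at 67.0 and 69.1 RPKM), erythroid and platelet genes to 0.178 and 0.620 RPKM (2 of 9) and stromal and endothelial genes to 3.25 and 6.30 RPKM (5 of 8). Ighd, Col1a2 and Col3a1 were at 0 in the library labelled Smad4 KO. Each group had 1 library, so no difference at 39.5 °C has a replicate check or a p-value, and the 95% intervals beside the ratios cover counting error only.

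At 39.5 °C more genes stood higher than lower with the KO label. Among the 13715 genes whose mean over the 4 libraries reached 1 RPKM, 459 (3.35%) differed by at least 2-fold on the log2(RPKM + 1) scale. Differences of low genes come out too small on it. With the KO label 315 of these were higher (2.30% of the 13715) and 144 lower (1.05%). At 4-fold the counts were 42 and 15. The median difference of all genes was 0.00. The higher genes were mostly low in WT, with a median of 3.23 RPKM there and 11.7 RPKM in the library labelled Smad4 KO, while the lower genes went the other way, from a median of 8.92 to 2.47 RPKM. Both sets hold weakly counted genes: 31 of the 315 and 24 of the 144 had under 50 reads in the pair.

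**Figure D1:**
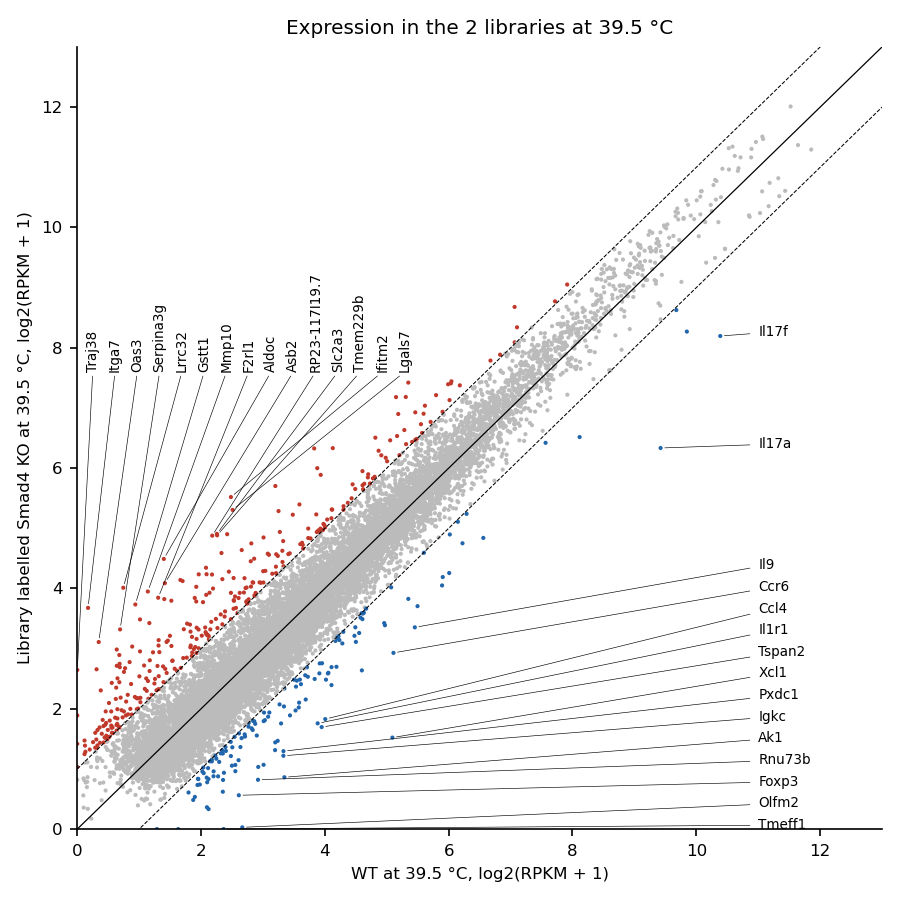
Each point is 1 gene with a mean of at least 1 RPKM, with log2(RPKM + 1) in WT on the x axis and in the library labelled Smad4 KO on the y axis, both at 39.5 °C. The solid line is equality and the dashed lines are 2-fold; the 315 higher genes (red) and 144 lower genes (blue) lie outside them, with the 15 largest differences each way named, among them Il17a and Il17f far below the line at high levels.

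The largest differences on the high side came from adhesion, TGF-β carrier, metabolic and interferon genes. Itga7, which encodes the α7 integrin chain (chromosome 10, 128933818 to 128958282, plus strand of GRCm38), stood at 0.128 and 11.8 RPKM, from 20 and 1756 reads, a ratio of 92.1 (59.4 to 151). Lrrc32, whose product GARP carries latent TGF-β on the cell surface (chromosome 7, 98489283 to 98502181, plus strand), stood at 0.674 and 15.1 RPKM, a ratio of 22.5 (17.4 to 29.5). Both were nearly absent from WT and moderately expressed with the KO label. Aldoc, the aldolase C gene of glycolysis, was at 1.63 and 21.5 RPKM, a ratio of 13.1 (10.7 to 16.2). The interferon-induced membrane protein gene Ifitm2 was at 4.59 and 44.9 RPKM, with reads that are uncertain among the Ifitm copies, and the antiviral 2′-5′-oligoadenylate synthetase gene Oas3 was at 0.271 and 7.63 RPKM, a ratio of 28.1 (20.3 to 40.2). The matrix metalloproteinase gene Mmp10 was at 1.2 and 14.4 RPKM, a ratio of 12 (8.68 to 17), but at 37 °C it was at 9.4 and 17.4 RPKM, so its ratio of 1.84 (1.6 to 2.13) there was far smaller. The facilitative glucose transporter gene Slc2a3 (GLUT3) was at 3.77 and 29 RPKM, and Asb2, an adaptor of ubiquitin ligases, at 1.67 and 16 RPKM. Other genes among the 15 were the galectin gene Lgals7 (4.69 and 38.6 RPKM), the glutathione transferase gene Gstt1 (0.915 and 12.3 RPKM), the serpin gene Serpina3g (0.615 and 8.98 RPKM), Tmem229b (3.79 and 28.5 RPKM) and the protease-activated receptor gene F2rl1 (1.47 and 13.4 RPKM). Gstt1 and Serpina3g belong to families of close copies, and their reads are uncertain by gene. The last 2 of the 15 rest on few reads: RP23-117I19.7 had 6 and 46 reads, and the T cell receptor α joining segment Traj38 had 0 and 6.

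On the low side the 15 largest differences included 5 cytokine or chemokine genes. The chemokine gene Xcl1 (lymphotactin; chromosome 1, 164931644 to 164935527, minus strand) stood at 33.1 and 1.87 RPKM, a ratio of 0.0565 (0.0331 to 0.0907). Il17a (chromosome 1, 20730905 to 20734496, plus strand) stood at 686 and 79.7 RPKM, from 15503 and 1718 reads, which is 8.6-fold lower with the KO label. Il17f stood at 1338 and 292 RPKM, which is 4.58-fold lower. Il9, which encodes a growth factor for mast cells and T cells, was at 42.8 and 9.22 RPKM, and the chemokine gene Ccl4 at 15.1 and 2.55 RPKM. The receptor genes Ccr6 (33.5 and 6.62 RPKM) and Il1r1 (13.8 and 2.38 RPKM) and the Treg factor gene Foxp3 (chromosome X, 7573644 to 7595245, plus strand; 5.1 and 0.477 RPKM, ratio 0.0934 (0.0641 to 0.132)) were also among them. Olfm2, a secreted olfactomedin gene, had 275 reads in WT and 1 in the library labelled Smad4 KO. Tmeff1, which encodes a transmembrane protein with follistatin domains, had 204 and 0 reads, at least 64.8-fold lower when the library at 0 is set to a floor of 3 reads. Those genes were close to silent with the KO label at 37 °C too, at 0 RPKM for Olfm2 and 0.0222 RPKM for Tmeff1. The tetraspanin gene Tspan2 was at 14.4 and 2.24 RPKM and Pxdc1 at 9.06 and 1.45 RPKM. The adenylate kinase gene Ak1 was at 9.17 and 0.817 RPKM, and at 37 °C at only 0.191 and 0.284 RPKM, so that WT at 39.5 °C was the 1 library of 4 with more than 1 RPKM. The immunoglobulin κ constant gene Igkc was at 9.05 and 1.33 RPKM, beside a B cell marker sum of 4.63 and 3.85 RPKM; the part of B cells in that difference was not tested. The small RNA gene Rnu73b had 9 and 1 reads.

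**Figure D2:**
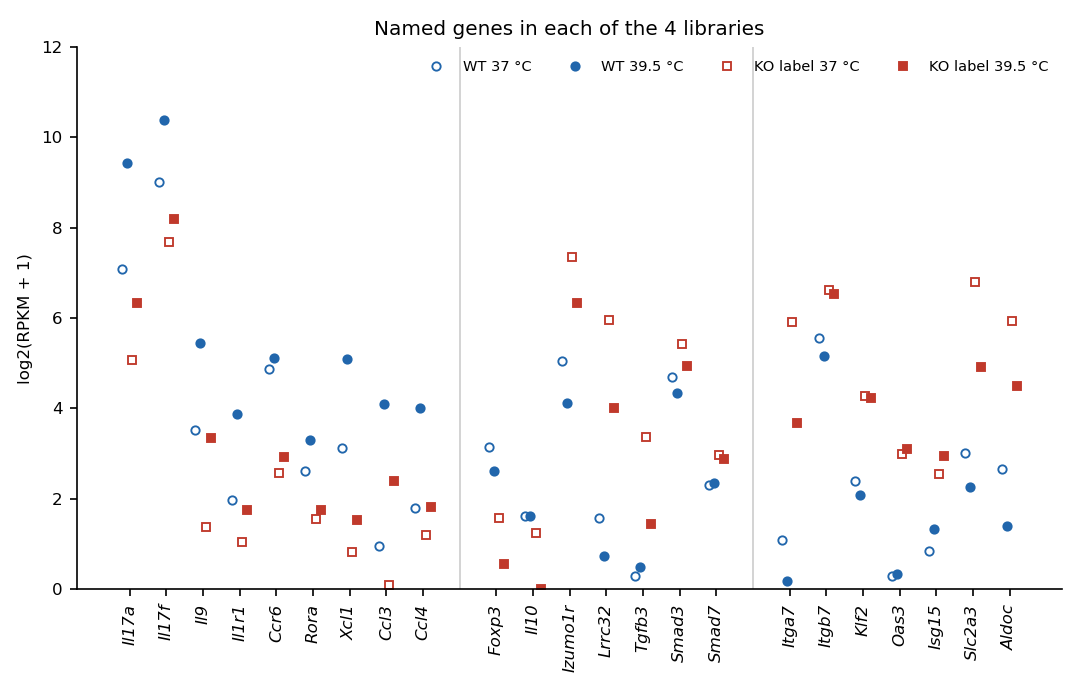
Log2(RPKM + 1) of 23 named genes in the 4 libraries, with circles for WT, squares for the libraries labelled Smad4 KO, open symbols for 37 °C and filled symbols for 39.5 °C; each symbol is 1 library and there are no error bars. For Il17a the filled circle (686 RPKM) is the highest of the 4 and both squares lie below both circles, while for Itga7, Lrrc32, Aldoc and Slc2a3 both squares lie above both circles.

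Th17 effector genes had the lowest median of the 30 lists plotted for 39.5 °C. Of 15 listed genes, all in the tables, 14 passed the minimum mean; 6 of these were at least 2-fold lower, 0 at least 2-fold higher, and the median difference was −0.64, against 0.00 over all genes. The 6 were Il17a, Il17f, Il9, Ccr6, Il1r1 and Il10. Il10, an anti-inflammatory cytokine gene, had 53 reads in WT and 0 with the KO label, at least 16.8-fold lower. Other Th17 genes did not pass 2-fold. Il21, a cytokine gene that sustains Th17 and follicular cells, was at 94.4 and 61.2 RPKM (ratio 0.649 (0.628 to 0.67)), and the IL-23 receptor gene Il23r at 6.66 and 4.13 RPKM (0.619 (0.515 to 0.744)). Ccl20, the ligand gene of Ccr6, was on the other side at 84.9 and 146 RPKM, a ratio of 1.72 (1.63 to 1.81). Csf2, which encodes GM-CSF, was at 2.59 and 3.94 RPKM, and Il22 was under 1 RPKM in every library. The median depended on the low genes: it was −1.36 with a minimum mean of 5 RPKM and −1.10 with a pseudocount of 0.1 RPKM. The lowest rank was lost with a minimum mean of 5 RPKM, where the chemokine list had a median of −1.71, against −0.13 in the main setting. In bulk RNA, fewer cells making a transcript and less transcript per cell cannot be told apart.

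The genes of the Th17 transcription factors were not lower as a group. The list had 19 of 20 genes past the minimum mean, with 1 at least 2-fold higher, 2 at least 2-fold lower and a median of −0.04. Rora, encoding the nuclear receptor RORα, was at 8.8 and 2.38 RPKM (0.27 (0.246 to 0.296)), and Ikzf3, encoding Aiolos, at 11.8 and 4.88 RPKM (0.412 (0.379 to 0.448)); both were lower. The AP-1 family genes split: Batf, needed for Th17 differentiation, was at 116 and 61.9 RPKM (0.533 (0.502 to 0.566)), and its relative Batf3 at 2.79 and 15.3 RPKM (5.49 (4.35 to 6.99)). Irf4 (456 and 389 RPKM), Stat3 (32.5 and 35.6 RPKM), Maf (38.8 and 50.1 RPKM), Ahr (22.9 and 16.9 RPKM) and Hif1a (80.7 and 63.6 RPKM) were within 2-fold.

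Chemokine genes differed in both directions. Of 7 measured chemokine genes 3 were at least 2-fold lower, Xcl1, Ccl3 (16.2 and 4.25 RPKM) and Ccl4, and Ccl5 was higher at 3.24 and 13.9 RPKM, a ratio of 4.28 (3.22 to 5.78). Of 9 chemokine receptor genes 4 were lower: Ccr6, Cxcr6 (7.05 and 1.1 RPKM), Ccr8 (58.9 and 17.2 RPKM) and Cxcr5 (4.17 and 0.913 RPKM), the receptor gene that guides cells to B cell follicles. Cxcr3 (6.73 and 6.97 RPKM), Ccr7 (349 and 334 RPKM), Ccr4 (83.3 and 94.1 RPKM) and Cxcr4 (19.6 and 21.5 RPKM) were nearly level. Among 12 measured genes tied to pathogenic Th17 cells, Ccl3, Ccl4 and the galectin gene Lgals3 (63.8 and 28.8 RPKM) were lower and Ccl5 was higher, and Lag3 (188 and 136 RPKM) and Tbx21 (1.46 and 1.81 RPKM) were within 2-fold.

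Treg genes were split, with 3 of 15 measured members at least 2-fold higher and 4 lower. Lower were Foxp3, Il10, Nrp1, which encodes the semaphorin receptor neuropilin-1 (7.59 and 2.83 RPKM), and Nt5e, the gene of the adenosine-producing enzyme CD73 (14.5 and 5.76 RPKM). Higher were Izumo1r, the folate receptor 4 gene (16.5 and 79.6 RPKM, ratio 4.83 (4.46 to 5.24)), the receptor gene Gpr83 (1.63 and 4.43 RPKM) and Tnfrsf18, the gene of GITR (41.5 and 85.6 RPKM), which was just under 2-fold with upper quartile scaling. Foxp3 and Izumo1r therefore stood apart in opposite directions in the same library. Il2ra (299 and 259 RPKM), Ctla4 (179 and 189 RPKM) and Capg (216 and 336 RPKM) were within 2-fold.

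Few genes of the TGF-β pathway itself passed 2-fold. Over all measured genes 3.35% did, so lists this small would hold few, and the pathway is not shown to differ less than other genes. Among ligands and activators, 7 of 19 listed genes were measured and Lrrc32 was the member past 2-fold. Tgfb3, a TGF-β ligand gene, was just short of it on the log scale at 0.398 and 1.73 RPKM, although its ratio was 4.36 (2.82 to 6.97), and Tgfb1 was at 124 and 172 RPKM (1.38 (1.35 to 1.41)). The convertase gene Furin, whose product cleaves the TGF-β precursor, was at 121 and 73.6 RPKM (0.607 (0.594 to 0.621)), and the activin gene Inhba at 3.39 and 1.43 RPKM. Among 9 receptor genes, Tgfbr1, the type I TGF-β receptor gene, was at least 2-fold lower at 5.52 and 1.98 RPKM (0.359 (0.308 to 0.416)), whereas Tgfbr2 was at 9.88 and 12.2 RPKM and Acvr1b at 5.23 and 7.5 RPKM. The bone morphogenetic protein receptor gene Bmpr2 was at 1.9 and 0.876 RPKM. None of the 16 measured SMAD and regulator genes passed 2-fold in either direction, and their median was −0.14. Smad3 was at 19.4 and 29.9 RPKM (1.54 (1.46 to 1.63)), Smad2 at 18.8 and 14.3 RPKM (0.763 (0.701 to 0.831)), the inhibitory Smad7 at 4.14 and 6.33 RPKM (1.53 (1.34 to 1.76)) and the corepressor gene Ski at 103 and 70.3 RPKM (0.682 (0.662 to 0.703)).

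Known TGF-β target genes were not displaced as a group. Of 20 listed, 18 were in the tables and 16 measured; 1 was at least 2-fold lower, 0 higher, and the median was 0.05, against 0.52 at 37 °C. The lower gene was Gadd45b, a stress sensor gene that TGF-β induces (30.3 and 9.47 RPKM, ratio 0.312 (0.272 to 0.357)). Id1, an inhibitor of helix-loop-helix factors, was at 2.37 and 0.749 RPKM and its relative Id3 at 8.79 and 15.9 RPKM, so the ratios of 0.317 (0.169 to 0.562) and 1.81 (1.57 to 2.09) lay on opposite sides of 1. Pmepa1 at 35.4 and 33.9 RPKM and Skil at 6.45 and 4.62 RPKM were within 2-fold. Itgae, which TGF-β induces in T cells, was under 1 RPKM in every library and was not measured.

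Integrin genes stood on the high side. Of 20 listed, 18 were in the tables and 9 measured; 3 were at least 2-fold higher, 0 lower, and the median was 0.61, or 0.15 with no minimum mean. Besides Itga7 these were Itgb7, the β7 chain of the gut-homing integrins (34.9 and 91.7 RPKM, ratio 2.63 (2.49 to 2.77)), and Itga3 (9.62 and 22.8 RPKM, 2.37 (2.2 to 2.55)). Itgb2, the LFA-1 β chain gene, was at 130.3 and 250.5 RPKM and its partner Itgal at 101.4 and 129 RPKM, while Itgb1, the partner chain of α7 and α3, was on the low side at 53.5 and 34.1 RPKM (0.638 (0.607 to 0.67)). Genes of naive and recirculating T cells were split by member. Klf2, the factor that switches on exit and homing genes, was higher at 3.25 and 17.9 RPKM (5.49 (4.49 to 6.75)). S1pr1, a target of KLF2, was not, at 10.7 and 7.22 RPKM (0.674 (0.594 to 0.765)). Klf6 was lower at 21.5 and 9.23 RPKM (0.429 (0.394 to 0.468)). The naive-state factor genes Lef1 (14.3 and 28.3 RPKM) and Tcf7 (163 and 281 RPKM) had ratios of 1.98 (1.88 to 2.08) and 1.72 (1.67 to 1.77), and Cd44, an activation marker, was at 49.4 and 24.8 RPKM (0.502 (0.481 to 0.524)).

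Genes of the other helper lineages were mixed. Of 7 measured Th1 genes 2 were at least 2-fold higher, among them the IL-12 receptor chain gene Il12rb2 (1.87 and 7.24 RPKM, ratio 3.87 (3.2 to 4.71)), while Stat4 was at 6.67 and 3.03 RPKM (0.454 (0.385 to 0.534)) and Tbx21 was level. Of 6 Th2 genes, Il4 was higher at a low level, with 2 and 31 reads, and Ccr8 and the amphiregulin gene Areg (3.28 and 0.715 RPKM) were lower; Gata3 was at 1.9 and 1.75 RPKM. Of 8 follicular helper genes, Cxcr5 and Pdcd1, the PD-1 gene (47.5 and 23.1 RPKM), were lower and Slamf6 was higher (1.9 and 5.94 RPKM). Cytokine signalling genes held 1 member past 2-fold among 23, the kinase gene Pim2 (137 and 323 RPKM, 2.37 (2.3 to 2.43)), and the feedback gene Socs3 was at 5.84 and 10.2 RPKM and Jak3 at 52.4 and 93.5 RPKM. Among 18 costimulatory and checkpoint genes Cd226 (1.25 and 5.99 RPKM) and Tnfrsf18 were higher and Cd96 (6.33 and 2.36 RPKM) and Pdcd1 lower; Cd226 and Cd96 encode receptors that share a ligand and lay on opposite sides. Among 21 AP-1 and immediate early genes the survival gene Ier3 was higher (4.08 and 16.8 RPKM) and the orphan receptor gene Nr4a3 lower (10.5 and 2.92 RPKM), and Junb (361 and 514 RPKM) and Fos (1.37 and 1.39 RPKM) were within 2-fold.

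**Figure D3:**
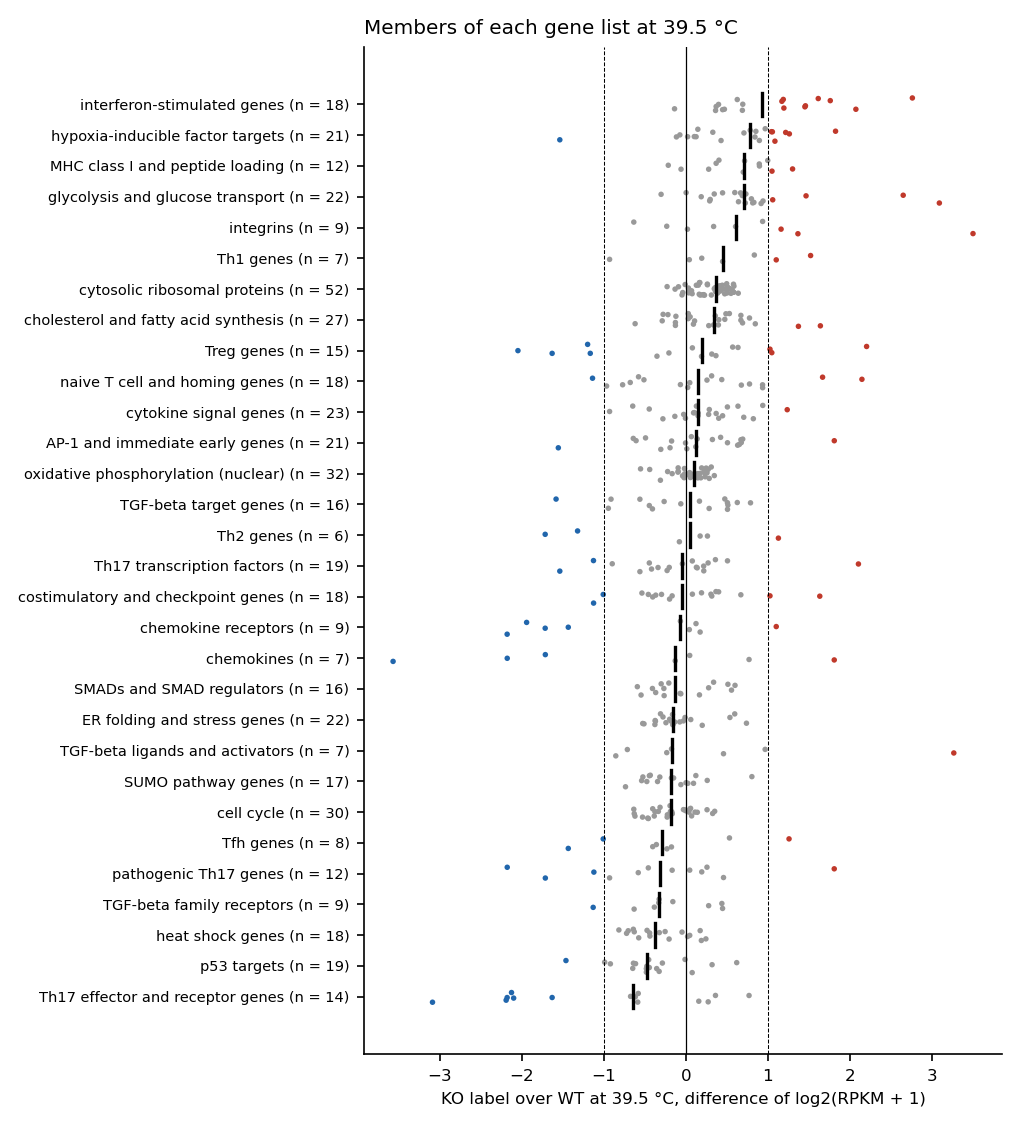
Difference of log2(RPKM + 1) between the library labelled Smad4 KO and WT at 39.5 °C for every measured member of 30 gene lists, 1 point per gene, with the list median as a black bar and dashed lines at 2-fold; lists overlap in members. Interferon-stimulated genes have the highest median (0.93) and Th17 effector genes the lowest (−0.64), and all other medians but those of 4 lists above 0.5 lie between −0.48 and 0.45.

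Interferon-stimulated genes, which antiviral signalling turns on, had the highest median of the 30 lists plotted. This rank depended on the minimum mean. With none set the interferon median was 0.40, below 0.71 for glycolysis genes. At 5 RPKM it was 0.69, below 0.94 for integrin genes. Some members, such as Irf7 and Ddx58, were under 1 RPKM in WT at 39.5 °C and reached the minimum mean through other libraries. Of 38 listed genes 35 were in the tables and 18 were measured; 9 of the 18 were at least 2-fold higher, 0 were lower, and the median was 0.93, or 0.40 with no minimum mean. The 9 were Oas3, the RNA sensor genes Dhx58 (0.601 and 4.43 RPKM, ratio 7.37 (5.23 to 10.6)) and Ddx58 (0.463 and 2.3 RPKM, 4.96 (3.77 to 6.62)), Irf7 (0.315 and 2.0 RPKM), the ubiquitin-like modifier gene Isg15 (1.51 and 6.68 RPKM, 4.43 (2.76 to 7.41)), Ifi27l2a (39.7 and 170.4 RPKM), Trim30a (1.25 and 5.18 RPKM), the nucleic acid sensor gene Zbp1 (2.55 and 8.73 RPKM) and the guanylate-binding protein gene Gbp2 (71.5 and 165 RPKM, 2.31 (2.22 to 2.4)). Apart from Gbp2 and Ifi27l2a they were all below 10 RPKM in both libraries. The factor genes were nearer to level, with Stat2 at 2.07 and 2.97 RPKM and Irf9 at 4.66 and 8.17 RPKM. Several typical members were close to 0 in both libraries, such as Ifit1 (0.253 and 0.0818 RPKM), Ifit3 (0.297 and 0.0934 RPKM) and Oasl2 (0.065 and 0.0341 RPKM), and Ifit2 was at 1.13 and 0.941 RPKM. Usp18 (3 and 42 reads) and Mx1 (3 and 14 reads) were on the high side below the minimum mean. Reads of the Oas copies are uncertain by gene.

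The promoters of 4 of the 9 genes hold the core of the interferon response element, GAAA repeated after any 2 bases, within 250 bases before the RefSeq start, searched on both strands. The 120 bases before the start are shown for these genes as the sequence that their shared element sits in, from RefSeq on build GRCm38.p6, 5′ to 3′ in the direction of the gene, with the element in capitals (TTTC, 2 bases and TTTC where it lies on the other strand). They are the minus strand of chr5:120777660-120777779 for Oas3, the minus strand of chr4:156200819-156200938 for Isg15, the plus strand of chr3:142620543-142620662 for Gbp2 and the minus strand of chr7:104465194-104465313 for Trim30a.
Oas3: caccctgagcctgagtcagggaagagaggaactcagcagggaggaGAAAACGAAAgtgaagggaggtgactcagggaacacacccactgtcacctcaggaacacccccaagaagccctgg
Isg15: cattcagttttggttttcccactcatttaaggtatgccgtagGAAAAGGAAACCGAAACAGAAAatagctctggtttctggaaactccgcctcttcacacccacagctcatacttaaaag
Gbp2: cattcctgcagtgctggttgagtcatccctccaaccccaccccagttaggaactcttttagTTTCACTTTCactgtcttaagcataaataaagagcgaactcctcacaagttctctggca
Trim30a: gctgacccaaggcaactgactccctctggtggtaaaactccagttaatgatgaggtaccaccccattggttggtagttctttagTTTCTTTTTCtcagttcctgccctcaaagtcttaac
Isg15 has 3 overlapping matches in a row and the others have 1. Over the list, 7 of the 13 measured members with a promoter in the RefSeq table held the element: Bst2, Gbp2, Gbp3, Isg15, Oas3, Stat2 and Trim30a. It was in 2.98% of all 32851 promoters of that table, counted by promoter. Counted by gene, with a match in any promoter of the gene, it was found for 226 of 7203 measured genes (3.14%). By the same count it was found for 20 of 167 genes (12%) at least 2-fold higher at 39.5 °C and 0 of 81 lower genes. These are the genes with a promoter in that table, out of 315 higher and 144 lower genes. Bst2 (72.7 and 96.2 RPKM) and Gbp3 (1.81 and 2.61 RPKM) had the element and were within 2-fold. The palindrome GTCTAGAC, to which SMAD proteins bind, was found for 1 of the 167 genes and 0 of the 81. Among the measured genes it was in 18 of 7203 (0.25%), so these counts are too low to compare. A match is a run of letters in this window and not a measured binding site.

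**Figure D4:**
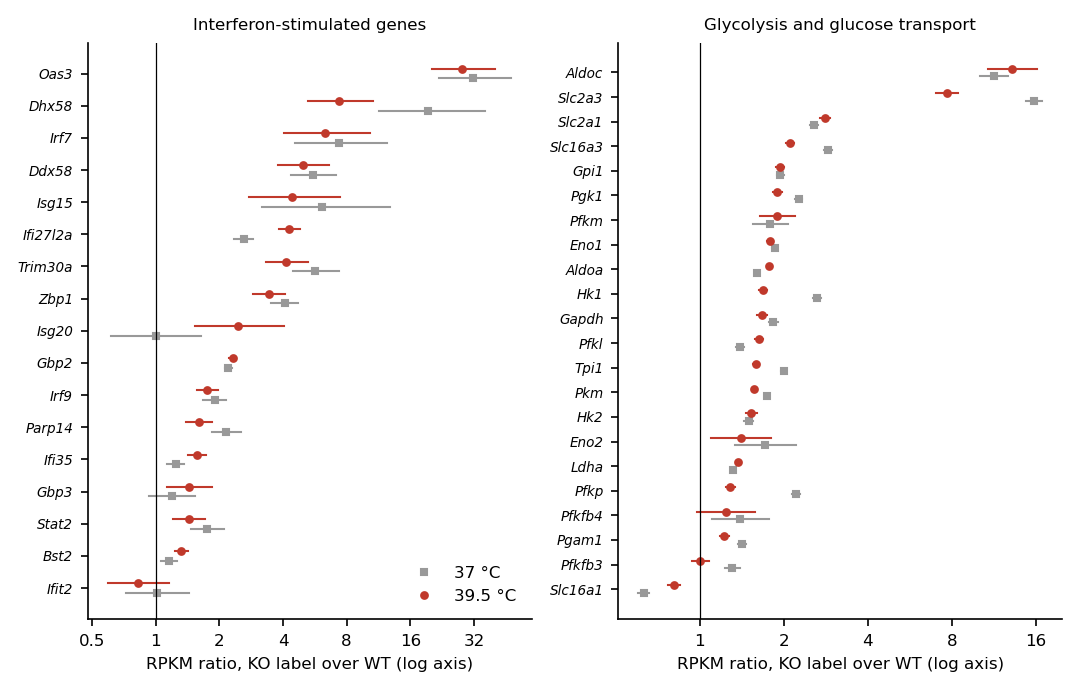
KO-label RPKM divided by WT RPKM on a log axis for 17 of the 18 measured interferon-stimulated genes (left) and the 22 glycolysis and glucose transport genes (right), with red circles for 39.5 °C, grey squares for 37 °C and bars for 95% counting intervals. At 39.5 °C all but 1 gene on each side lie at or above 1; Oas3 is the highest on the left and Aldoc on the right.

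Genes of MHC class I presentation were on the high side by smaller amounts. Of 12 measured, 10 were above 0 and 2 at least 2-fold higher, with a median of 0.71. Those 2 were the immunoproteasome genes Psmb9 (5.17 and 14.2 RPKM, ratio 2.75 (2.43 to 3.11)) and Psmb8 (26.9 and 56.9 RPKM, 2.11 (1.98 to 2.25)), the second of which was just under 2-fold with upper quartile scaling. The peptide transporter genes Tap1 (28.2 and 53.4 RPKM) and Tap2 (19.4 and 37 RPKM) and the loading factor gene Tapbp (37.2 and 75.5 RPKM) were close to 2-fold. The class I heavy chain genes H2-K1 (236 and 305 RPKM) and H2-D1 (252 and 306 RPKM), whose reads are uncertain among copies, and B2m (581 and 558 RPKM) differed little.

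Glycolysis and glucose transport genes stood higher almost throughout. All 22 listed genes were measured; 21 were above 0, 4 at least 2-fold higher and 0 lower, and the median was 0.71. The uptake step held the transporter genes Slc2a1 (GLUT1; chromosome 4, 119108711 to 119137983, plus strand), at 43 and 121 RPKM with a ratio of 2.8 (2.69 to 2.93), and Slc2a3. The middle enzymes had ratios close to one another: Gpi1 (56.3 and 109 RPKM, 1.94 (1.88 to 1.99)), Pgk1 (122 and 231 RPKM, 1.9 (1.83 to 1.96)), Eno1 (136 and 243 RPKM, 1.78 (1.75 to 1.82)) and Gapdh (51 and 85.1 RPKM, 1.67 (1.6 to 1.73)). Aldoa, the main aldolase gene of these cells, was at 433 and 763 RPKM (1.76 (1.73 to 1.79)), and Aldoc remained the lesser of the aldolase genes in spite of its larger ratio. At the exit step Slc16a3, the lactate exporter gene MCT4, was at 51.3 and 108 RPKM (2.11 (2.04 to 2.18), just under 2-fold with upper quartile scaling), whereas Slc16a1, encoding the related MCT1, was on the low side at 49 and 39.6 RPKM (0.808 (0.771 to 0.846)). Ldha, the lactate dehydrogenase gene, was at 573 and 783 RPKM, Hk2 at 30.7 and 47 RPKM and Pkm at 406 and 634 RPKM. Pfkfb3 was level at 11.2 and 11.2 RPKM.

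Targets of hypoxia-inducible factor, which overlap with glycolysis in cells but were listed apart, had 6 of 21 measured members at least 2-fold higher, 1 lower and a median of 0.79. Higher were the mitophagy gene Bnip3 (1.49 and 7.82 RPKM, ratio 5.26 (4.02 to 6.97)), Stc2 (0.0901 and 1.62 RPKM), the angiogenic factor gene Vegfa (2.56 and 7.29 RPKM), Ddit4, an inhibitor of mTORC1 (38.7 and 83.4 RPKM), the oxygen sensor gene Egln3 (113 and 236 RPKM) and the adenylate kinase gene Ak4 (6.37 and 14.2 RPKM). Egln3 and Ak4 were just under 2-fold with upper quartile scaling. The lower member was Rora. Hif1a itself was on the other side of 1 (0.788 (0.764 to 0.813)), and Ndrg1 (5.05 and 5.6 RPKM) and Bnip3l (11.1 and 11.3 RPKM) were level.

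The letters ACGTG, the core of the hypoxia response element, were found for 11 of 21 glycolysis genes and 12 of 18 genes of the hypoxia list. They were in 16.6% of all promoters in the table, which are counted by promoter and not by gene and include those of unmeasured genes. For measured genes, the like comparison, they were found for 1941 of 7203 (26.95%). That share was no higher among the genes that stood higher: 37 of 167 (22.2%), against 23 of 81 (28.4%) of the lower genes and 1941 of 7203 (26.95%, the share of all measured genes). Slc2a1 (plus strand of chr4:119108625-119108744), Slc16a3 (plus strand of chr11:120948947-120949066) and Ldha (plus strand of chr7:46845684-46845803), of the entry, exit and last enzyme steps, are shown because they held a match in the 120 bases before the start. Pgk1 and Aldoa had a match within 250 bases but not within those 120. ACGTG or its reverse complement is in capitals, from the same source and window.
Slc2a1: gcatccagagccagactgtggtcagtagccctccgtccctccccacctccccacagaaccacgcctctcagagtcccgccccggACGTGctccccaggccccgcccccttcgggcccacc
Slc16a3: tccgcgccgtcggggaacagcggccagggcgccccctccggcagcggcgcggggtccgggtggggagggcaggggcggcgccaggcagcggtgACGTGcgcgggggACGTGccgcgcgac
Ldha: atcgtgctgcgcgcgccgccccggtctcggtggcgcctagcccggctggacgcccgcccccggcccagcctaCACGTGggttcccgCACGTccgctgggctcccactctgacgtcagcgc
Slc2a1 has 1 match in these bases, Slc16a3 has 2 and Ldha has 3. For Ldha, 2 of the matches overlap in CACGTG, which reads the same on both strands.

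Several large programs held few or no genes past 2-fold. Over all measured genes 3.35% passed it, 2.30% on the high side. At that share a list of this size would hold few or none, so such counts do not set these programs apart. The lipid synthesis list had 2 of 27 members at least 2-fold higher, the stearoyl-CoA desaturase genes Scd1 (2.42 and 9.67 RPKM, ratio 4.0 (3.45 to 4.65)) and Scd2 (64.6 and 169 RPKM, 2.62 (2.54 to 2.69)), while the sterol enzyme gene Sqle (21.3 and 19.5 RPKM) was near level. No member passed 2-fold in either direction in the lists of cell cycle genes (30 measured, median −0.18), ER folding genes (22, −0.16), SUMO pathway genes (17, −0.18), nuclear genes of oxidative phosphorylation (32, 0.10), cytosolic ribosomal proteins (52, 0.36) and T cell markers (12, 0.06). Within them the proliferation marker gene Mki67 was at 29.8 and 19.1 RPKM and the SUMO protease gene Senp6 at 11.1 and 6.28 RPKM, both on the low side. The 18 measured heat shock genes also held none past 2-fold, but 13 of them were below 0, with a median of −0.38, against −0.64 at 37 °C. The cytosolic chaperone gene Hsp90aa1 was at 47.4 and 26.5 RPKM, Hspa8 at 307 and 245 RPKM and the mitochondrial chaperonin gene Hspd1 at 95.1 and 60.7 RPKM. Of the ribosomal protein genes 46 of 52 were above 0, by at most 0.64 on the log2 scale. The p53 target list had a median of −0.48 and 16 of 19 members below 0. At 37 °C its median was on the other side, at 0.23, with 3 members at least 2-fold higher and 0 lower. At 39.5 °C its 1 member past 2-fold was Perp, an apoptosis effector gene (15.5 and 5.01 RPKM, 0.322 (0.271 to 0.381)), with Ccng1 (56.1 and 27.8 RPKM) and Trp53inp1 (16.9 and 8.46 RPKM) just short of it.

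The 37 °C pair shares no library with the 39.5 °C pair and gives the same contrast in other cultures. The labels do not say whether both temperatures of a genotype came from the same animals or cell pool. Likeness of the pairs is therefore not replication over animals. Of the 315 genes at least 2-fold higher at 39.5 °C, 226 (71.7%) were at least 2-fold higher at 37 °C as well, where 645 of 13715 genes (4.70%) met that rule, and 310 (98.4%) had the same sign. The medians of the 315 were 1.25 at 39.5 °C and 1.34 at 37 °C. Of the 144 lower genes, 42 (29.2%) were at least 2-fold lower at 37 °C, where 156 genes (1.14%) met the rule, and 125 (86.8%) had the same sign; their medians were −1.24 and −0.69. Over all genes 75.3% had the same sign in both pairs. Higher genes picked at 39.5 °C thus had about the same difference at both temperatures. Lower genes had a smaller difference at 37 °C than at the temperature they were picked at. Seen from the other side, 226 of the 645 genes at least 2-fold higher at 37 °C met that rule at 39.5 °C, and 42 of the 156 lower genes did. Areg (0.361, 3.28, 0.327 and 0.715 RPKM for WT at 37 °C, WT at 39.5 °C, KO label at 37 °C and KO label at 39.5 °C) and Perp (2.59, 15.5, 2.64 and 5.01 RPKM) show one form of this: WT at 39.5 °C was the highest library of the 4 and the 3 others were lower. Ccl3 (0.932, 16.2, 0.074 and 4.25 RPKM) was also highest in WT at 39.5 °C and was under 1 RPKM in both libraries at 37 °C. In Xcl1 (7.77, 33.1, 0.759 and 1.87 RPKM), Ccr6 (28.3, 33.5, 4.98 and 6.62 RPKM) and Ccr8 (40.5, 58.9, 12.6 and 17.2 RPKM) both WT libraries lay above both libraries with the KO label.

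**Figure D5:**
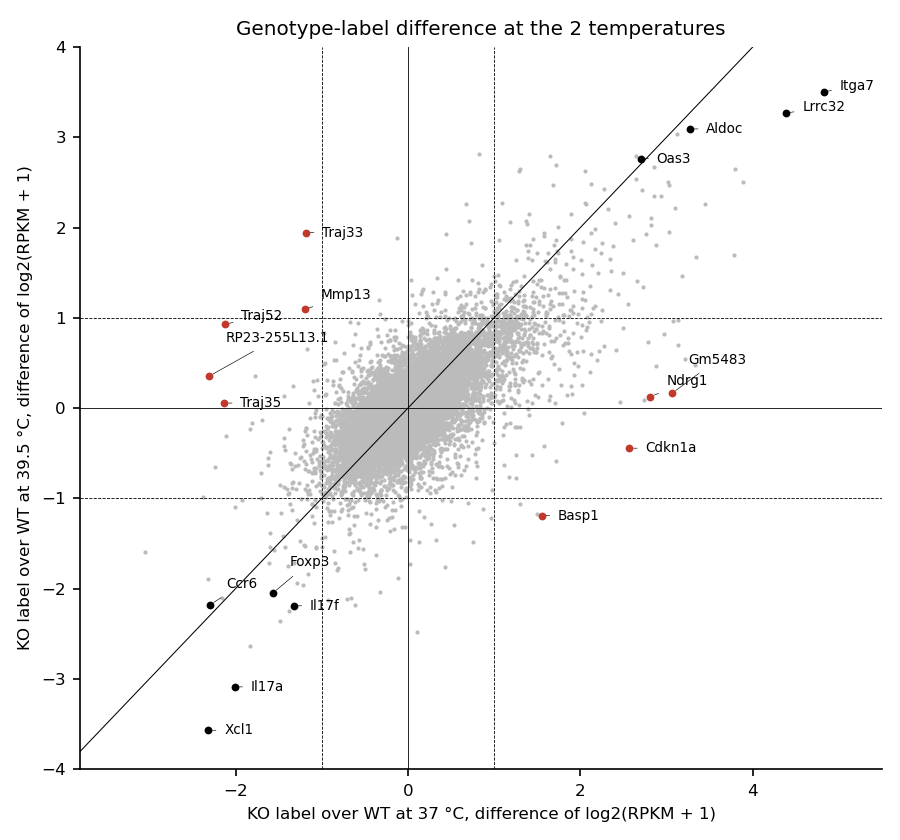
Difference of log2(RPKM + 1) between the library labelled Smad4 KO and WT for each of 13715 genes, at 37 °C on the x axis and at 39.5 °C on the y axis, with the diagonal marking equal differences and dashed lines marking 2-fold. Genes among the 10 with the largest gap between the 2 temperatures are red and selected others black; Cdkn1a and Basp1 lie right and below 0, Mmp13 and Traj33 left and above 0.

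The genes with the largest gap between the genotype-label differences at 39.5 °C and 37 °C were examined next. The 5 with the largest shift towards lower included Cdkn1a, Gm5483, Ndrg1 and Basp1. Cdkn1a, the gene of the cell cycle inhibitor p21 (chromosome 17, 29090976 to 29100727, plus strand), stood at 22.3, 178, 137 and 130.3 RPKM in the same order of libraries, so that WT at 37 °C was the low library and the other 3 were alike. Its ratio was 0.733 (0.708 to 0.759) at 39.5 °C and 6.16 (5.74 to 6.62) at 37 °C. The stress-induced gene Ndrg1 (1.83, 5.05, 18.9 and 5.6 RPKM) was high with the KO label at 37 °C and lower in the 3 others. Basp1, a membrane-associated signalling protein gene (7.57, 12.2, 24.2 and 4.79 RPKM), was past 2-fold in opposite directions, with ratios of 0.392 (0.328 to 0.466) at 39.5 °C and 3.19 (2.78 to 3.67) at 37 °C. Gm5483 had 1 and 2 reads at 39.5 °C. The 5 with the largest shift towards higher were Mmp13, a collagenase gene (15, 1.98, 5.96 and 5.34 RPKM), and 4 weakly counted rows, Traj33 (3 and 14 reads at 39.5 °C), Traj52, Traj35 and RP23-255L13.1. With 1 library per group these gaps between temperatures were not tested.

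A test was possible only for the difference shared by both temperatures, in a limma fit of genotype label and temperature over all 4 libraries. It called 1176 genes (8.57%) as rising and 644 (4.70%) as falling with the KO label, and it called 0 either way when no minimum mean was set. The fit has 1 residual degree of freedom and, on simulated data, called more unchanged genes than its threshold allows. The 39.5 °C libraries are part of that fit, so its calls are not independent of the values above: 281 of the 315 higher genes (89.2%) rose and 89 of the 144 lower genes (61.8%) fell. By list, 16 of 22 glycolysis genes, 12 of 21 hypoxia targets, 10 of 18 interferon-stimulated genes and 5 of 9 integrin genes rose, and 6 of 14 Th17 effector genes and 5 of 18 heat shock genes fell. The other way, 1 hypoxia target and 1 integrin gene fell and 1 Th17 effector gene rose. For the glycolysis, interferon and heat shock lists that number was 0. Of the 16 measured TGF-β target genes 4 rose and 3 fell, and of the p53 targets 1 rose and 0 fell. Among these, Il17a fell (log2 −2.55 ± 0.26 SE, adjusted p = 0.0137), Ccr6 fell (log2 −2.24 ± 0.12 SE, adjusted p = 0.00616) and Foxp3 fell (log2 −1.81 ± 0.17 SE, adjusted p = 0.0125). The 5 heat shock genes were Hsp90aa1 (log2 −0.88 ± 0.12 SE, adjusted p = 0.0179), Hspd1, Hsph1, Dnaja1 and Hspa4, the last lost without a variance trend (limma adjusted p = 0.0587). Itga7 (log2 4.16 ± 0.31 SE, adjusted p = 0.00777), Oas3 (log2 2.73 ± 0.14 SE, adjusted p = 0.00611), Slc2a1 (log2 1.41 ± 0.12 SE, adjusted p = 0.00977) and Klf2 (log2 2.02 ± 0.14 SE, adjusted p = 0.00637) rose, each in the same direction in both pairs. Several genes past 2-fold at 39.5 °C did not pass: Ccl4 (log2 −1.39 ± 0.36 SE, adjusted p = 0.0603), Mmp10 (log2 1.81 ± 0.44 SE, adjusted p = 0.0545), Perp (log2 −0.72 ± 0.34 SE, adjusted p = 0.198), Ak1 (log2 −1.19 ± 0.57 SE, adjusted p = 0.204) and Il10 (log2 −1.0 ± 0.31 SE, adjusted p = 0.0856). Tbx21 did not pass either (log2 0.14 ± 0.16 SE, adjusted p = 0.566). Smad4 rose (log2 0.54 ± 0.12 SE, adjusted p = 0.0454), a call lost with upper quartile scaling and without a variance trend.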

How the data were processed

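Each library has its own table of RPKM values as the authors deposited them, and the 19555 rows of the 4 tables match line by line. The build was mm10 and the tools named were edgeR, Subread, featureCounts, Bowtie2 and Trim Galore 0.4.4, per the submitters' processing notes. Strandedness, annotation and settings are not given there or in the labels, so overlapping and antisense genes cannot be separated. Groups came from the labels. RPKM values are not counts, so no count test was run as the main test. Whole reads were recovered from them for 19554 rows (tolerance 0.003 reads; 12053 of 13144 rows, 91.7%, were whole within 0.01 reads at exon lengths of GENCODE vM21, which gave the gene positions). They give the exact Clopper-Pearson 95% intervals of ratios and the floor of 3 reads, which cover counting error only, since PCR reads are not independent molecules.

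Genes with a mean of at least 1 RPKM were compared as log2(RPKM + 1) with a 2-fold size rule and no p-value. The shared difference was tested with limma 3.58.1 in R 4.3.3 (genotype label and temperature, empirical Bayes with a trend, Benjamini-Hochberg adjusted p under 0.05, 1 residual degree of freedom). Its p-values weigh a gene against its interaction and the trend over genes, with no replicate animals or cultures behind them. Named were Smad4, the 15 largest differences each way, list members, and the 5 largest shifts each way between temperatures. Some of these genes are not reported here. The comparison and lists were chosen with earlier results of these data known. Alternatives were another pseudocount, minimum mean, scaling, size rule and no variance trend.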

Additional observations from a re-analysis of the deposited data

Results flagged for a closer look

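Among the 560 measured genes that the lists or the naming rule hold, 49 had differences in opposite directions at the 2 temperatures with both counting intervals clear of 1, and 6 of the 49 were past 2-fold in at least 1 pair. With 1 library per group none of these differences between temperatures was tested. Mmp13 had a genotype-label difference of 1.09 at 39.5 °C and −1.20 at 37 °C on the log2(RPKM + 1) scale, a gap of 2.29. Cdkn1a had −0.44 and 2.57, a gap of −3.01. Basp1 had −1.19 and 1.55, a gap of −2.75. The galectin gene Lgals3 (17.1, 63.8, 32.1 and 28.8 RPKM for WT at 37 °C, WT at 39.5 °C, KO label at 37 °C and KO label at 39.5 °C) had −1.12 and 0.87, a gap of −1.99. Il24, a cytokine gene of the IL-10 family (0.515, 0.972, 3.97 and 0.314 RPKM), had −0.59 and 1.71, a gap of −2.30, with few reads (26 and 8 at 39.5 °C). The checkpoint gene Vsir (12.5, 14.8, 27.9 and 11.8 RPKM) had −0.30 and 1.102, a gap of −1.40. For Lgals3 WT at 39.5 °C was the high library, and for Cdkn1a WT at 37 °C was the low one.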

How the results depend on the processing

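The counts of genes depended on where low expression was set. The 315 higher and 144 lower genes became 549 and 317 with a pseudocount of 0.1 RPKM, 204 and 69 with a minimum mean of 5 RPKM, and 1243 and 875 with a 1.5-fold rule; upper quartile scaling gave 260 and 177, which moved the higher share of all called genes from 68.6% to 59.5%. Of the 315 and 144, the numbers also past 2-fold at 37 °C were 226 and 42, against 383 and 100 with a pseudocount of 0.1 RPKM, and the lower number was 25 with a minimum mean of 5 RPKM. Lists of 3 or more genes with a median of at least 0.5 above 0 numbered 5, or 3 with no minimum mean; those as far below 0 numbered 1, or 2 with a pseudocount of 0.1 RPKM, 3 with a minimum mean of 5 RPKM and 2 with upper quartile scaling. The medians of the TGF-β receptor list and of the TGF-β ligand list were −0.33 and −0.17, and 0.36 and 0.14 with a minimum mean of 5 RPKM. The median of the TGF-β target list was 0.05, and −0.13 with no minimum mean. Medians close to 0 also changed sign for the Th17 transcription factor, Th2, costimulatory and T cell marker lists under some settings. No named gene past 2-fold and no list with a median at least 0.5 from 0 changed sign under the settings run. The limma fit called 1176 and 644 genes, and 0 and 0 with no minimum mean, where the lowest adjusted p was 0.0546 and 3085 and 2311 genes had an unadjusted p under 0.05. Of 88 named genes past 2-fold, 88 stayed past it with median-ratio scaling, 83 with upper quartile scaling and 58 with a minimum mean of 5 RPKM, which removed the other 30 from the table. No paired analysis was possible because the labels give no replicate numbers and each group holds 1 library; leaving out a library was not possible for the same reason. Genes with under 50 reads in a pair, mostly short rows, are the least precise.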

Other observations

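Groups described here were chosen after their values were seen. Among MHC class II genes, which present peptides to CD4+ T cells, 9 were in the tables and 4 measured; 3 of these were at least 2-fold higher with the KO label at 39.5 °C. H2-Ab1, a class II β chain gene, stood at 3.23 and 19.3 RPKM (ratio 5.98 (4.84 to 7.46)), the peptide exchange gene H2-DMa at 4.36 and 28.9 RPKM (6.63 (5.54 to 8.0)), H2-Oa at 0.946 and 3.51 RPKM and the invariant chain gene Cd74 at 22.6 and 41.7 RPKM (1.84 (1.67 to 2.04)). Below the minimum mean, H2-Aa, the partner chain of H2-Ab1, lay on the other side at 1.05 and 0.174 RPKM (38 and 6 reads), as did H2-Eb1 at 1.27 and 0.367 RPKM, and Ciita, the class II master regulator gene, had 6 and 3 reads. Class II genes are close copies in part, so reads are uncertain by gene, and the summed myeloid markers were 73.3 and 77.6 RPKM and B cell markers 4.63 and 3.85 RPKM; their part in these values was not tested.

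All 13 mitochondrially encoded protein genes were lower with the KO label at 39.5 °C, with a median of −0.81 on the log2 scale there and −0.73 at 37 °C, and 12 of the 13 fell in the limma fit, mt-Co1 being the exception. mt-Nd6, a complex I gene and the 1 protein gene of the light strand, was at 920.2 and 308 RPKM (0.334 (0.321 to 0.349)) and mt-Cytb at 2769 and 1560 RPKM (0.563 (0.556 to 0.571)), while the 32 nuclear genes of oxidative phosphorylation had a median of 0.10. Among T cell receptor signalling genes Cd247, the ζ chain gene, was at 58.4 and 15.6 RPKM (0.266 (0.252 to 0.282)), while Cd3g was at 36.1 and 49.2 RPKM and Cd3e at 59.2 and 54.7 RPKM.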
